A study of Mus musculus with 12 samples.

Results

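The 46 genes described here act in the G2 phase and in mitosis: the cyclins and Cdk1 that start division, the kinases, checkpoint and kinetochore proteins that run it, the machinery of anaphase, spindle and cytokinesis, and the proteins that shape mitotic chromosomes. They were picked by gene symbol for their known role, at a time when earlier results of these data were known. All 46 were found among the 43472 genes of the deposited table, and all 46 were among the 10751 genes that passed the filter on low values. The RNA came from mouse embryos of the outbred CD1 strain whose zygotes had been injected with siRNA against Tdgf1, or with a negative control siRNA (called control below). Every zygote also received GFP mRNA as a marker of injection. The 6 groups were Tdgf1 siRNA and control morulae, early blastocysts and late blastocysts, with 2 libraries each. Tdgf1 encodes Cripto, a membrane-bound co-receptor for Nodal. How many embryos went into a library is not stated in the labels, and no label says whether replicates came from separate embryos or injections. The p-values therefore measure the spread between these libraries alone, which may be technical.

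Entry into mitosis is set off when Cdk1 binds cyclin A or cyclin B and Cdc25 phosphatases remove its inhibitory phosphates. Aurora and Polo-like kinases then build the spindle, the spindle checkpoint holds back anaphase until every kinetochore is attached, and the anaphase-promoting complex with Cdc20 destroys securin and cyclin B. Preimplantation embryos divide without growing, first on stores laid down in the oocyte and later on their own transcripts. Most genes of mitosis are held silent in G0 and G1 and transcribed in G2 through a promoter element called CHR, bound by the DREAM and MuvB complexes, together with CCAAT boxes bound by NF-Y.

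Promoters of 8 genes are shown because CHR and CCAAT boxes are the elements these genes are best known to share. Ccnb2, Cdk1, Ckap2, Espl1, Ncapd2 and Kif23 had the largest absolute log2 changes from morula to late blastocyst. Ccnb1 and Pttg1 are added because, in the window searched, Ccnb1 held neither TTTGAA nor TTCGAA and Pttg1 held neither these nor a CCAAT box. Each stretch runs from 120 bases before to 30 bases after the gene start, 5′ to 3′ on the gene's strand, in RefSeq sequence of build GRCm38.p6. Capitals mark the CHR motif (TTTGAA or TTCGAA) and the CCAAT box (CCAAT) on either strand, so that ATTGG is a CCAAT box read from the other strand. The GAA that opens Ncapd2 is the end of a CHR that begins before the stretch shown. The windows are chr9:70421525-70421674 (minus strand) for Ccnb2, chr13:100786457-100786606 (minus) for Ccnb1, chr10:69352883-69353032 (minus) for Cdk1, chr8:22185790-22185939 (minus) for Ckap2, chr15:102296173-102296322 (plus) for Espl1, chr6:125191557-125191706 (minus) for Ncapd2, chr9:61946770-61946919 (minus) for Kif23 and chr11:43425952-43426101 (minus) for Pttg1.
Ccnb2: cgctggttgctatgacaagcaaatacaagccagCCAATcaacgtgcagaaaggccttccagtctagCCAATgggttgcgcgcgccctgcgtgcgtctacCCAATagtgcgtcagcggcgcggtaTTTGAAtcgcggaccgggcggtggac
Ccnb1: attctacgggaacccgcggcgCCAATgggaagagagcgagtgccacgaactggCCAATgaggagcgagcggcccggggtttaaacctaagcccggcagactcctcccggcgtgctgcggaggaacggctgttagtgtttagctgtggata
Cdk1: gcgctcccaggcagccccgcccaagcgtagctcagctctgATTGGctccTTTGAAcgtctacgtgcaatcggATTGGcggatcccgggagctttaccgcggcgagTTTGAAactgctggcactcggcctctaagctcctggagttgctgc
Ckap2: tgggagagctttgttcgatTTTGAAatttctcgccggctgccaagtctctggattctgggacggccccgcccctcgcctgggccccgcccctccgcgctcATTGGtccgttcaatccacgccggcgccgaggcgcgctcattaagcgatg
Espl1: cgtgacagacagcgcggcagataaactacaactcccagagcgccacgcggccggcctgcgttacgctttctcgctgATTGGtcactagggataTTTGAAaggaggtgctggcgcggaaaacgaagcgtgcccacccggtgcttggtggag
Ncapd2: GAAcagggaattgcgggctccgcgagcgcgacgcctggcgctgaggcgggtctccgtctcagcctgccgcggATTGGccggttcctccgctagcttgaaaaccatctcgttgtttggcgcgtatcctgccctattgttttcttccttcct
Kif23: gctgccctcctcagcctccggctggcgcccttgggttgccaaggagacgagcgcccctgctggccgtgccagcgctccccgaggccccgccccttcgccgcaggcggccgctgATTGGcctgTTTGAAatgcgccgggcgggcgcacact
Pttg1: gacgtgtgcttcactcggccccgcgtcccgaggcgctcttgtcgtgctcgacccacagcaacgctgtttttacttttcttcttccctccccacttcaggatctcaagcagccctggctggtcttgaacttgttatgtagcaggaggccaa

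Of the 46 genes, 39 had a promoter in the RefSeq table, each searched from 250 bases before to 50 bases after the start. A CHR motif was found in 32 of the 39 (82.1%), a CCAAT box in 30 (76.9%) and both in 28 (71.8%). Among all 27025 genes with a promoter of the same length the shares were 21.7%, 41.1% and 8.61%, and among the 7830 of them that were tested for expression 16.2%, 43.6% and 7.06%. Overlapping matches were kept, and a match is a description of letters, not of a bound site. Birc5, Mad2l1, Nuf2, Nusap1 and Pttg1 held neither motif in the window. Of these, Mad2l1 and Pttg1 have GENCODE starts (chr6:66535390 and chr11:43426251) outside the windows searched, so those starts were not covered. The same held for Cdca8, Kif2c and Kif4 (GENCODE starts chr4:124939311, chr4:117182639 and chrX:100625737), which are counted among the 32 with a CHR. Ccnb1 and Cenpe held a CCAAT box without either searched form of the CHR (TTTGAA or TTCGAA). Other forms of the CHR were not searched. A CHR stood in 8 of the 10 promoters of genes higher at late blastocyst than at morula, in 9 of the 11 of genes lower there, and in 15 of the 18 of genes that did not pass the test. Aurkb, Ccna2, Cdc25c, Incenp, Kif20a, Smc4 and Tpx2 were not in the table.

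**Figure D1:**
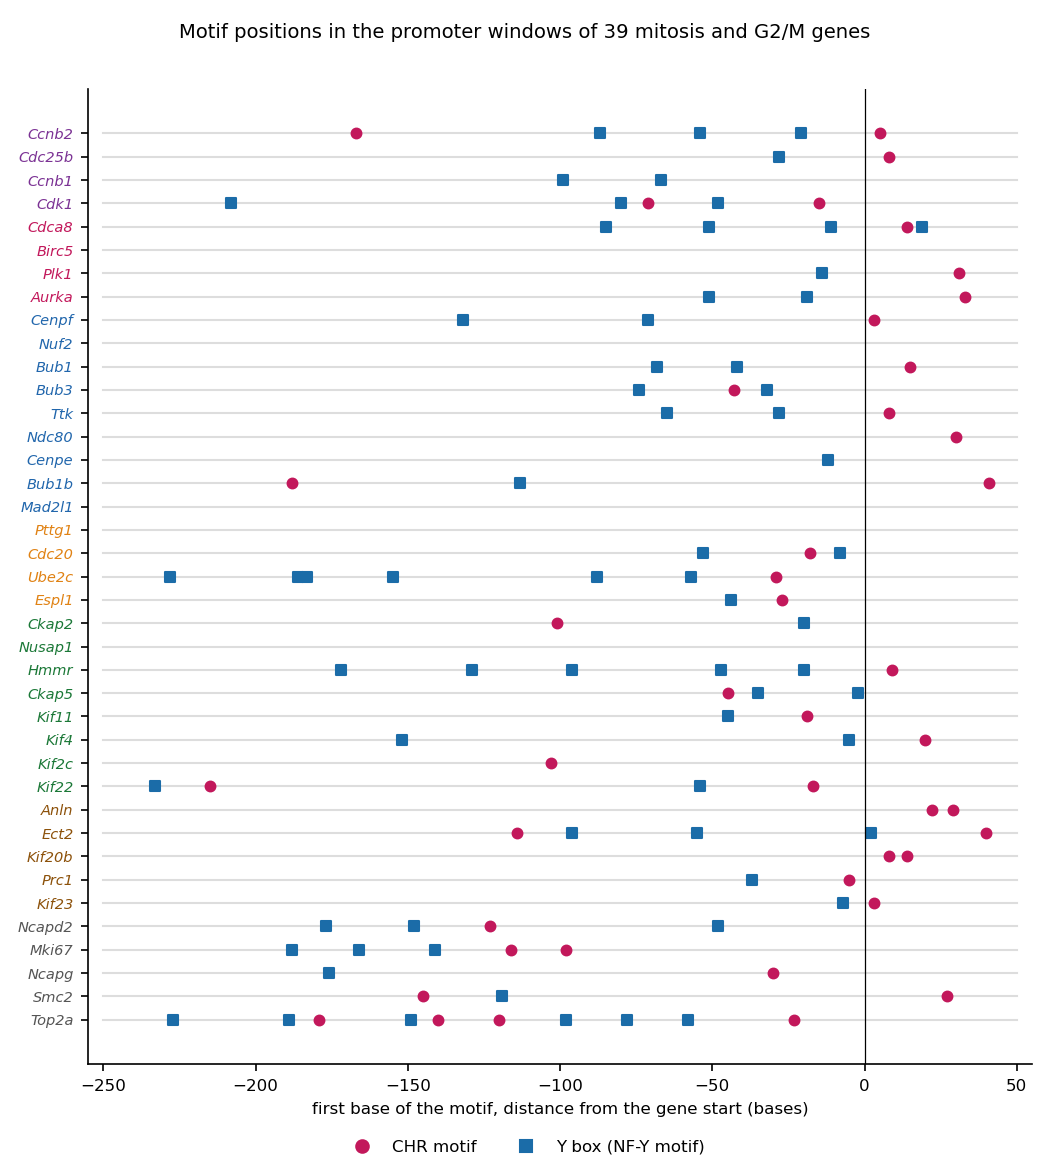
Positions of the CHR motif (circles) and the CCAAT box, also called Y box (squares), in the promoter windows of 39 mitosis and G2/M genes. The horizontal axis is the distance of the first motif base from the gene start in bases, and label colours separate the 7 roles, in the order used below. Most of the circles stand close to the start, with squares before them, as in Bub1, Espl1 and Kif11.

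The libraries held 10524640 to 13770264 reads, and the least covered of the 46 genes, Cdc25b, had 50 to 133 reads in a library, well above the 3 reads (0.218 to 0.285 CPM) that a count of 0 allows. Levels are CPM (reads of a gene per 1000000 reads), not divided by gene length. Tdgf1 itself had 15.5 and 11.0 CPM in Tdgf1 siRNA morulae, against 29.4 and 23.4 CPM in control morulae. At early blastocyst it had 9.27 and 15.2 CPM in Tdgf1 siRNA libraries, against 21.7 and 13.1 CPM in controls, so the ranges overlapped and the Tdgf1 siRNA library numbered 2 lay above the control numbered 2. At late blastocyst it had 49.5 and 70.8 CPM with Tdgf1 siRNA, against 97.3 and 84.6 CPM in controls. Averaged over stages the log2 change was -0.61 (SE 0.16, limma adjusted p = 1.0). Lineage markers moved with stage: summed trophectoderm markers, 6 of 6 of them past the filter, stood at 541 to 776 CPM in morulae, 1652 to 3690 CPM in early and 5286 to 7544 CPM in late blastocysts, and 8 epiblast and pluripotency markers summed to 809 to 1125, 836 to 983 and 360 to 409 CPM at these stages. The 5 primitive endoderm markers summed to 392 to 462, 233 to 293 and 305 to 369 CPM. The 12 cumulus and granulosa cell markers summed to 29.3 to 41.5, 22.5 to 49.7 and 76.3 to 97.5 CPM. Of these, 10 stayed under 1 CPM in every library, and Amhr2 and Serpine2 passed the filter. The 12 blood and reproductive tract genes summed to 228 to 409, 708 to 1067 and 1458 to 1641 CPM at the 3 stages. Cd74, Vim, Pecam1 and Epcam were the 4 tested ones, and 4 others stayed under 1 CPM in every library. This sum was not split by gene. Whether its reads came from the embryo's own cells or from other cells was not tested, so it is not a measure of contamination. The part of these shifts in the changes below was not tested, and in whole embryos fewer cells of a type and less RNA per cell cannot be told apart.

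The genes of mitosis did not move as a block between stages. From morula to late blastocyst 11 of the 46 were higher (23.9%) and 14 lower (30.4%) (limma, adjusted p under 0.05 over all tested genes, 4 libraries a stage), while 36.6% of all tested genes were higher and 24.3% lower. At early blastocyst against morula 9 were higher (19.6%) and 5 lower (10.9%), with 19.7% and 14.0% of all tested genes in those directions. At late against early blastocyst 9 were higher (19.6%) and 15 lower (32.6%), against a background of 27.0% and 17.7%, so the lower share lay above its background. Altogether 34 of the 46 (73.9%) passed the test in at least 1 of the 3 comparisons, as did 71.5% of all tested genes, so the share called in either direction was near the background. Leaving out 1 library at a time gave 8 to 14 higher and 11 to 14 lower at late blastocyst against morula, 5 to 11 and 2 to 5 at early blastocyst against morula, and 4 to 9 and 9 to 16 at late against early blastocyst. The median absolute log2 change from morula to late blastocyst was 0.37 among the 46, against 0.52 over all tested genes, and 3 of the 46 (6.52%; Ccnb2, Cdk1 and Ckap2) passed an absolute log2 change of 1, against 23.2% of all tested genes.

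The median log2 change of the 46 was 0.03 at early blastocyst against morula, -0.08 at late against early blastocyst and -0.03 at late blastocyst against morula, where the medians of all tested genes were 0.05, 0.09 and 0.13. These medians depended on the scaling and on single libraries. Early blastocyst against morula was at -0.01 with edgeR and -0.03 with DESeq2. Late against early blastocyst was at -0.16 with quantile scaling and -0.21 with edgeR and with DESeq2, and late blastocyst against morula at -0.11, -0.18 and -0.19 with these 3. Within Tdgf1 siRNA libraries alone they were -0.03, 0.02 and 0.01. Leaving out 1 library gave -0.04 (without Tdgf1 siRNA morula replicate 2) to 0.11 (without Tdgf1 siRNA morula replicate 1) for early blastocyst against morula. It gave -0.11 (without control early blastocyst replicate 2) to -0.04 (without Tdgf1 siRNA early blastocyst replicate 1) for late against early blastocyst, and -0.07 (without control morula replicate 2) to 0.03 (without Tdgf1 siRNA morula replicate 1) for late blastocyst against morula. Both comparisons with morula thus changed sign with 1 library. The median for early blastocyst was also below 0 without control morula replicate 2 or Tdgf1 siRNA early blastocyst replicate 1 (-0.02 and -0.03), and that for late blastocyst also above 0 without control morula replicate 1 (0.01). The median of all genes for late blastocyst against morula shifted by -0.20 with quantile scaling, by -0.13 with edgeR's TMM and by -0.14 with DESeq2's size factors. Relative to the median of all genes, the 46 stood at -0.16 as deposited, -0.04 after quantile scaling and -0.18 with either edgeR or DESeq2. The split of calls moved in the same way: at late blastocyst against morula it was 10 higher and 16 lower with quantile scaling and 8 higher and 16 lower with edgeR and with DESeq2. At early blastocyst against morula it was 7 and 8 with quantile scaling, 6 and 8 with edgeR and 6 and 9 with DESeq2, and at late against early blastocyst 6 and 18 with edgeR and with DESeq2. No gene of the 46 that passed the test in 1 of 2 fits so compared had the opposite sign in the other.

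**Figure D2:**
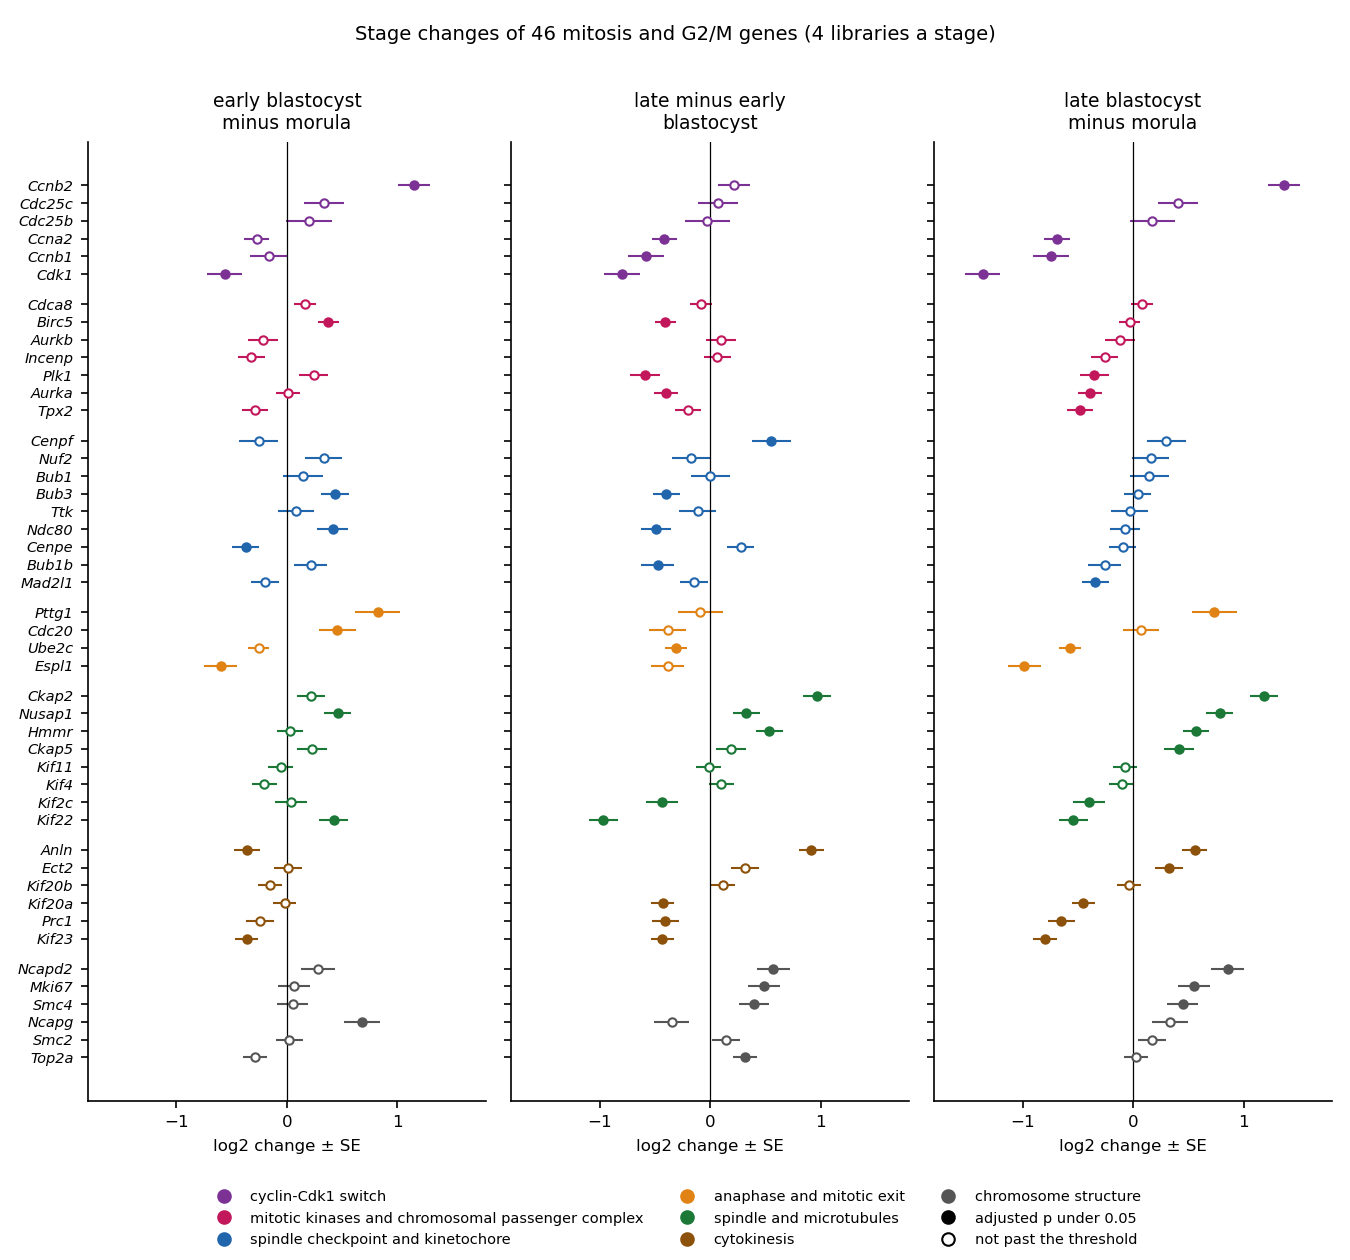
Log2 change ± SE (horizontal axis) of each of the 46 genes between stages, grouped by role, from limma on 4 libraries a stage. Filled points passed an adjusted p of 0.05. Ccnb2 (1.37) and Ckap2 (1.18) stand at the right and Cdk1 (-1.36) at the left of the panel for late blastocyst against morula, and every role group but the kinases, the checkpoint and the chromosome genes holds filled points on both sides of 0 there.

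The cyclin-Cdk1 switch held the largest rise and the largest fall among the 46 from morula to late blastocyst. Of its 6 genes, 1 was higher (Ccnb2, 16.7%) and 3 lower (Cdk1, Ccnb1 and Ccna2, 50%) at late blastocyst than at morula. The median log2 change was -0.26, and the phosphatases Cdc25b and Cdc25c did not pass the test. Shares by role, here and below, stand against 36.6% higher and 24.3% lower among all tested genes. Each role holds 4 to 9 genes, and no share was tested against that background. Ccnb2, which encodes cyclin B2 (chr9:70407692-70421547, minus strand), had 69.2 and 77.4 CPM in Tdgf1 siRNA and 112 and 70.9 CPM in control morulae. Early blastocysts had 190 and 167 CPM in Tdgf1 siRNA and 211 and 170 CPM in control libraries, and late blastocysts had 201 and 207 CPM in Tdgf1 siRNA and 199 and 255 CPM in control libraries. All 8 blastocyst libraries lay above all 4 morula libraries, and most of the gain had come by the early blastocyst (log2 change 1.15, SE 0.14, limma adjusted p = 9.8e-05). From morula to late blastocyst it was 2.62-fold higher (log2 change 1.37, SE 0.14, limma adjusted p = 2.8e-06).

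Ccnb1, for cyclin B1, the B-type cyclin without which mouse embryos do not develop (chr13:100778650-100786570, minus strand), went the other way. It had 925 and 628 CPM in Tdgf1 siRNA and 899 and 676 CPM in control morulae. Early blastocysts had 546 and 806 CPM in Tdgf1 siRNA and 598 and 848 CPM in control libraries, and late blastocysts had 459 and 409 CPM in Tdgf1 siRNA and 472 and 498 CPM in control libraries. The late blastocyst libraries all lay below every earlier one, while morula and early blastocyst overlapped, and the log2 change from morula to late blastocyst was -0.75 (SE 0.17, limma adjusted p = 0.0015). Within a library there were 8.02 to 13.4 Ccnb1 reads for each Ccnb2 read at morula, 2.83 to 5.0 at early blastocyst and 1.95 to 2.37 at late blastocyst, ranges that did not overlap. This ratio is free of the scaling of libraries but not of gene length, and it was chosen after its values were seen. Reads of Ccnb1 may in part belong to 4 pseudogenes that match its transcript at 95% identity or more over at least 300 bases, of which Gm12856 was counted at 0.36 CPM and the rest are not in the table under their symbols.

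Cdk1, the kinase that both cyclins activate (chr10:69335146-69352938, minus strand), had 474 and 423 CPM in Tdgf1 siRNA and 526 and 498 CPM in control morulae. Early blastocysts had 239 and 373 CPM in Tdgf1 siRNA and 275 and 443 CPM in control libraries, and late blastocysts had 198 and 179 CPM in Tdgf1 siRNA and 165 and 198 CPM in control libraries. It was lower at both steps (log2 change -0.56 and then -0.80, SE 0.16 each, limma adjusted p = 0.016 and 0.0014). Morula and early blastocyst overlapped, as the early control numbered 2 (443 CPM) lay inside the morula range. In either arm alone the first step did not pass the test (log2 change -0.55 in controls and -0.58 with Tdgf1 siRNA). By late blastocyst Cdk1 stood at 38.5% of its morula level, and no late blastocyst library reached any earlier one. Ccna2, for cyclin A2, was at 211 ± 14.2 CPM in late blastocysts against 344 ± 43.5 CPM in morulae (SD, n = 4 libraries, 2 of each siRNA), with 12.5% of its exon bases shared with Exosc9 on the opposite strand. Cdc25b and Cdc25c, which activate Cdk1, stood at 7.91 ± 2.09 and 26.9 ± 1.78 CPM in late blastocysts against 6.62 ± 2.02 and 19.8 ± 5.56 CPM in morulae.

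**Figure D3:**
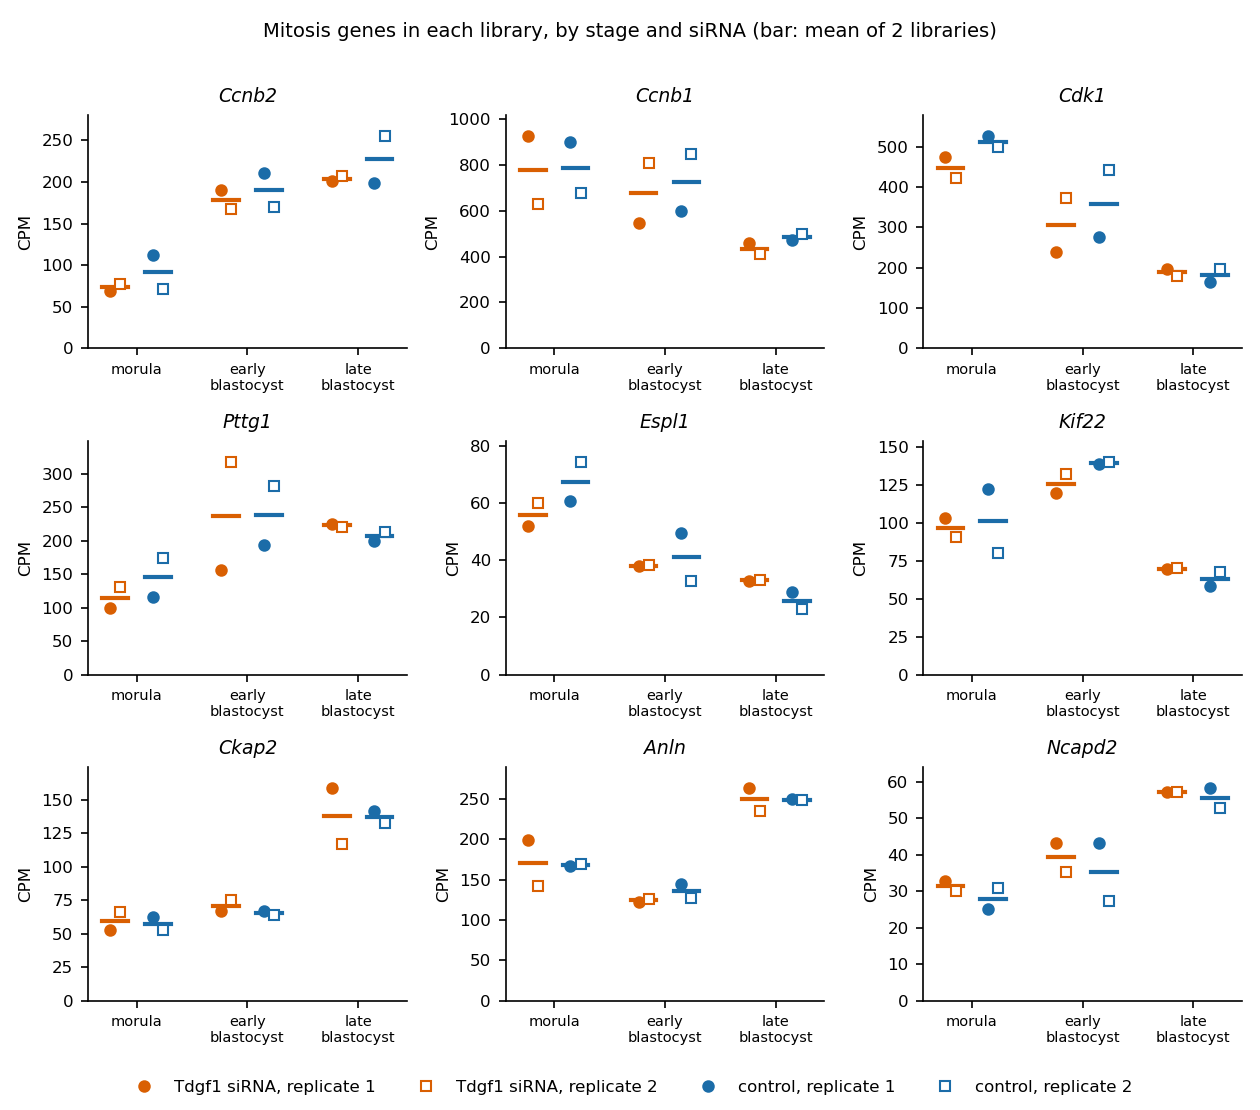
CPM (vertical axis, from 0) of 9 genes in each of the 12 libraries by stage, with Tdgf1 siRNA in orange left of control in blue, filled circles for replicate 1, open squares for replicate 2 and a bar for the mean of 2 libraries. The means of Ccnb2 step up and those of Cdk1 down between stages. Anln has its lowest means at early blastocyst (122 to 145 CPM) and Kif22 its highest (120 to 140 CPM). Both ranges overlap those of morula (142 to 199 and 80.3 to 122 CPM). Replicate numbers separate Ccnb1, Cdk1 and Pttg1 at early blastocyst.

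Among the 7 mitotic kinases and chromosomal passenger genes, 0 were higher and 3 lower (42.9%) at late blastocyst than at morula: Tpx2, Aurka and Plk1. Over all tested genes 36.6% were higher and 24.3% lower. Aurka encodes Aurora A, the kinase of the spindle poles, and Tpx2 the protein that activates it on microtubules. Aurka (chr2:172356190-172370535, minus strand) had 395 and 334 CPM in Tdgf1 siRNA and 380 and 341 CPM in control morulae. Early blastocysts had 318 and 395 CPM in Tdgf1 siRNA and 374 and 374 CPM in control libraries, and late blastocysts had 273 and 251 CPM in Tdgf1 siRNA and 276 and 304 CPM in control libraries. Its late blastocyst libraries lay below every other one (log2 change against morula -0.39, SE 0.11, limma adjusted p = 0.0064). Tpx2 (chr2:152847964-152895321, plus strand) had 179 and 194 CPM in Tdgf1 siRNA and 211 and 248 CPM in control morulae. Early blastocysts had 132 and 177 CPM in Tdgf1 siRNA and 174 and 199 CPM in control libraries, and late blastocysts had 159 and 158 CPM in Tdgf1 siRNA and 127 and 146 CPM in control libraries. Its late libraries all lay below its morula libraries (log2 change -0.48, SE 0.12, limma adjusted p = 0.0028), although within the Tdgf1 siRNA libraries alone the change, -0.23, did not pass the test.

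Plk1, the Polo-like kinase of mitotic entry and spindle assembly (chr7:122159439-122169873, plus strand), had 84.0 and 79.3 CPM in Tdgf1 siRNA and 98.4 and 89.1 CPM in control morulae. Early blastocysts had 95.7 and 103 CPM in Tdgf1 siRNA and 97.1 and 121 CPM in control libraries, and late blastocysts had 53.5 and 78.3 CPM in Tdgf1 siRNA and 76.5 and 65.8 CPM in control libraries. Its fall between the blastocyst stages (log2 change -0.59, SE 0.13, limma adjusted p = 0.0030) left every late library below every earlier one. Against morula the change was -0.35 (SE 0.13, limma adjusted p = 0.036), and that call was lost without any 1 of 5 libraries (replicate 1 of the morula controls, either Tdgf1 siRNA morula library, Tdgf1 siRNA replicate 1 or control replicate 2 of the late blastocysts), at -0.22 to -0.37. Birc5, or survivin, the passenger protein that docks the complex on centromeres, was higher at early blastocyst (733 ± 52.1 CPM, against 565 ± 32.4 CPM in morulae) and lower again at late blastocyst (552 ± 23.4 CPM). Its partners Aurkb, Incenp and Cdca8 passed no stage test, with late blastocyst means of 52.4 ± 0.89, 56.7 ± 3.68 and 243 ± 14.9 CPM against 58.0 ± 11.3, 68.7 ± 6.92 and 229 ± 13.5 CPM in morulae. Incenp, at a log2 change of -0.26, passed the test with quantile scaling, edgeR and DESeq2.

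Of the 9 spindle checkpoint and kinetochore genes, 0 were higher and 1 lower (Mad2l1, 11.1%) at late blastocyst than at morula. The median log2 change was -0.03. Bub1b, at -0.26 and not called there, was also lower with quantile scaling, edgeR and DESeq2 (log2 change -0.43, -0.42 and -0.43, adjusted p = 0.012, 0.019 and 0.012). Mad2l1, for the Mad2 protein that carries the checkpoint's wait signal (chr6:66535390-66547220, plus strand), had 161 and 137 CPM in Tdgf1 siRNA and 178 and 127 CPM in control morulae. Early blastocysts had 132 and 124 CPM in Tdgf1 siRNA and 134 and 129 CPM in control libraries, and late blastocysts had 114 and 103 CPM in Tdgf1 siRNA and 116 and 138 CPM in control libraries. The late and morula ranges overlapped. Its log2 change, -0.34 (SE 0.12, limma adjusted p = 0.027), no longer passed without either morula library numbered 1, without control replicate 1 or without Tdgf1 siRNA replicate 2 of the late blastocysts (-0.23 to -0.31). Some genes peaked at early blastocyst. Bub3, a checkpoint scaffold, was at 232 ± 16.3 CPM in early blastocysts against 172 ± 29.6 CPM in morulae and was lower again at 176 ± 12.3 CPM in late blastocysts. Ndc80, the microtubule-binding kinetochore subunit, did the same with 77.8 ± 10.1 CPM against 57.6 ± 7.58 CPM in morulae and 54.5 ± 6.20 CPM in late blastocysts. The first of these steps for Ndc80 was not past the threshold with quantile scaling, edgeR or DESeq2, and a pseudogene, 2700099C18Rik, matches its transcript over 303 bases and was counted at 37.8 CPM.

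Cenpe, the kinetochore motor, ran in the opposite sense, at 182 ± 19.5 CPM in early blastocysts, lower than 238 ± 40.0 CPM in morulae (log2 change -0.37, SE 0.12, limma adjusted p = 0.033). Cenpf (chr1:189640606-189688086, minus strand), a large kinetochore protein made in G2, had 137 and 107 CPM in Tdgf1 siRNA and 108 and 109 CPM in control morulae. Early blastocysts had 114 and 56.6 CPM in Tdgf1 siRNA and 129 and 98.0 CPM in control libraries, and late blastocysts had 141 and 128 CPM in Tdgf1 siRNA and 142 and 158 CPM in control libraries. It was higher at late than at early blastocyst (log2 change 0.56, SE 0.18, limma adjusted p = 0.022), with 1 early library, a control, just inside the late range. Bub1b, the checkpoint protein BubR1, was lower at late than at early blastocyst (log2 change -0.47, SE 0.15, limma adjusted p = 0.019). The kinases Bub1 and Ttk and the Ndc80 partner Nuf2 passed no stage test.

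Anaphase and mitotic exit had 1 of 4 genes higher (Pttg1, 25%) and 2 lower (Espl1 and Ube2c, 50%) at late blastocyst than at morula. Securin, encoded by Pttg1, holds separase inactive, and separase, encoded by Espl1, cuts cohesin when securin is destroyed. Pttg1 (chr11:43420250-43426251, minus strand) had 100 and 130 CPM in Tdgf1 siRNA and 116 and 174 CPM in control morulae. Early blastocysts had 156 and 317 CPM in Tdgf1 siRNA and 193 and 282 CPM in control libraries, and late blastocysts had 225 and 221 CPM in Tdgf1 siRNA and 200 and 213 CPM in control libraries. It was higher by early blastocyst (log2 change 0.82, SE 0.20, limma adjusted p = 0.0072) with the early libraries the most scattered, and higher at late blastocyst than at morula (log2 change 0.74, SE 0.20, limma adjusted p = 0.0063), where the libraries did not overlap. Espl1 (chr15:102296266-102324357, plus strand) had 51.9 and 59.9 CPM in Tdgf1 siRNA and 60.7 and 74.2 CPM in control morulae. Early blastocysts had 37.7 and 38.2 CPM in Tdgf1 siRNA and 49.3 and 32.8 CPM in control libraries, and late blastocysts had 32.7 and 33.2 CPM in Tdgf1 siRNA and 28.9 and 22.8 CPM in control libraries. All 8 blastocyst libraries lay below all 4 morula libraries (late blastocyst against morula, log2 change -0.99, SE 0.15, limma adjusted p = 6.8e-05).

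Cdc20 and Ube2c serve the anaphase-promoting complex, as its activator and as the ubiquitin-conjugating enzyme that starts its chains. Ube2c (chr2:164769898-164778822, plus strand) had 588 and 606 CPM in Tdgf1 siRNA and 786 and 633 CPM in control morulae. Early blastocysts had 531 and 513 CPM in Tdgf1 siRNA and 556 and 571 CPM in control libraries, and late blastocysts had 472 and 434 CPM in Tdgf1 siRNA and 415 and 427 CPM in control libraries. The 3 stages followed each other downwards without overlap, and late blastocyst was lower than morula (log2 change -0.57, SE 0.10, limma adjusted p = 0.00021). Tnnc2, whose exons cover 22.8% of those of Ube2c on the opposite strand, was counted at 0.26 CPM. Cdc20 was higher at early blastocyst than at morula, at 355 ± 32.2 CPM against 265 ± 77.0 CPM (log2 change 0.46, SE 0.16, limma adjusted p = 0.046), a call that was lost with quantile scaling, edgeR and DESeq2, and stood at 271 ± 18.7 CPM at late blastocyst.

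Of the 8 spindle and microtubule genes, 4 were higher (50%) at late blastocyst than at morula: Ckap2, Nusap1, Hmmr and Ckap5. Another 2 were lower (Kif22 and Kif2c, 25%). The 4 encode proteins that bind and stabilise or extend microtubules, and the 2 encode a chromosome-bound kinesin and a kinesin that takes microtubules apart. Ckap2 (chr8:22168160-22185819, minus strand) had 52.4 and 66.4 CPM in Tdgf1 siRNA and 62.3 and 52.4 CPM in control morulae. Early blastocysts had 66.6 and 75.3 CPM in Tdgf1 siRNA and 67.1 and 63.7 CPM in control libraries, and late blastocysts had 159 and 117 CPM in Tdgf1 siRNA and 141 and 132 CPM in control libraries. The gain came between the blastocyst stages (log2 change 0.97, SE 0.13, limma adjusted p = 7.3e-05), with every late library above every other, and reached 2.35-fold against morula (log2 change 1.18, SE 0.13, limma adjusted p = 3.9e-06).

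Kif22, also called Kid, the kinesin that pushes chromosome arms towards the spindle centre (chr7:127027729-127042471, minus strand), had 103 and 90.6 CPM in Tdgf1 siRNA and 122 and 80.3 CPM in control morulae. Early blastocysts had 120 and 132 CPM in Tdgf1 siRNA and 139 and 140 CPM in control libraries, and late blastocysts had 69.4 and 70.2 CPM in Tdgf1 siRNA and 58.2 and 67.5 CPM in control libraries. Late blastocysts lay below all other libraries (log2 change against early blastocyst -0.96, SE 0.13, limma adjusted p = 8.5e-05, and against morula -0.54, SE 0.13, limma adjusted p = 0.0028, the second not past the threshold within Tdgf1 siRNA libraries alone). Its gain before that (log2 change 0.42, SE 0.13, limma adjusted p = 0.025) was not called with edgeR or DESeq2. Nusap1, which bundles spindle microtubules, was the only 1 of the 46 genes higher at both steps, with 65.3 ± 6.65 CPM in early blastocysts against 46.5 ± 4.38 CPM in morulae and 82.5 ± 4.67 CPM in late blastocysts, its second step not called with quantile scaling, edgeR or DESeq2. Hmmr (chr11:40701395-40733422, minus strand), a spindle pole protein, had 105 and 89.3 CPM in Tdgf1 siRNA and 118 and 109 CPM in control morulae. Early blastocysts had 79.3 and 105 CPM in Tdgf1 siRNA and 126 and 124 CPM in control libraries, and late blastocysts had 173 and 145 CPM in Tdgf1 siRNA and 165 and 147 CPM in control libraries. Its late blastocyst libraries lay above all others (log2 change against morula 0.57, SE 0.12, limma adjusted p = 0.0010). Ckap5, a microtubule polymerase, was at 96.2 ± 1.16 CPM in late blastocysts against 71.4 ± 6.61 CPM in morulae, a call that edgeR and DESeq2 did not make. Kif11, the motor that separates the poles, and the chromokinesin Kif4 passed no stage test, and 15.1% of the exon bases of Kif4 are shared with Pdzd11 on the opposite strand.

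Cytokinesis genes also split, 2 higher (Anln and Ect2, 33.3%) and 3 lower (Kif23, Prc1 and Kif20a, 50%) of 6 at late blastocyst against morula. Anillin, encoded by Anln, anchors the contractile ring to the membrane and Ect2 activates RhoA there, while Kif23, Prc1 and Kif20a build the central spindle between the separating chromosomes. Anln (chr9:22332012-22389188, minus strand) had 199 and 142 CPM in Tdgf1 siRNA and 167 and 169 CPM in control morulae. Early blastocysts had 122 and 126 CPM in Tdgf1 siRNA and 145 and 128 CPM in control libraries, and late blastocysts had 263 and 235 CPM in Tdgf1 siRNA and 250 and 248 CPM in control libraries. It was lower at early blastocyst (log2 change -0.36, SE 0.12, limma adjusted p = 0.027) and then higher at late blastocyst (log2 change 0.92, SE 0.12, limma adjusted p = 4.2e-05), with every late library above all others. With quantile scaling Top2a and Cenpe also fell and then rose. Ect2, at 114 ± 13.1 CPM in late blastocysts against 90.4 ± 6.63 CPM in morulae (log2 change 0.32, SE 0.13, limma adjusted p = 0.042), was not called with quantile scaling, edgeR or DESeq2.

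Kif23, or Mklp1 (chr9:61915905-61946774, minus strand), had 182 and 159 CPM in Tdgf1 siRNA and 174 and 160 CPM in control morulae. Early blastocysts had 128 and 120 CPM in Tdgf1 siRNA and 137 and 135 CPM in control libraries, and late blastocysts had 75.2 and 92.6 CPM in Tdgf1 siRNA and 111 and 107 CPM in control libraries. Like Cdk1 it was lower at both steps (log2 change -0.37 and then -0.43, SE 0.11 each, limma adjusted p = 0.018 and 0.0052), and its stages did not overlap. Prc1, the protein that crosslinks antiparallel microtubules (chr7:80294450-80316259, plus strand), had 283 and 204 CPM in Tdgf1 siRNA and 263 and 233 CPM in control morulae. Early blastocysts had 180 and 189 CPM in Tdgf1 siRNA and 227 and 229 CPM in control libraries, and late blastocysts had 165 and 154 CPM in Tdgf1 siRNA and 131 and 171 CPM in control libraries. Late libraries lay below all earlier ones (log2 change against morula -0.65, SE 0.12, limma adjusted p = 0.00046), with 11.1% of its exon bases shared with Rccd1 on the opposite strand. Kif20a, or Mklp2, was at 131 ± 8.65 CPM in late blastocysts against 181 ± 18.3 CPM in morulae, and 29.3% of its exon bases lie opposite those of Cdc23, itself counted at 158 CPM. Kif20b passed no stage test.

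Chromosome structure was the 1 role with only higher calls at late blastocyst against morula. Of its 6 genes, 3 (50%) were higher (Ncapd2, Mki67 and Smc4), against 36.6% of all tested genes, and 0 were lower, against 24.3%. All 6 log2 changes were above 0, with a median of 0.39, against 0.13 over all tested genes. Smc2, Smc4, Ncapd2 and Ncapg belong to condensin, which compacts mitotic chromosomes, and Mki67 coats their surface and is a common marker of proliferation. Ncapd2 (chr6:125168007-125191701, minus strand) had 32.9 and 30.1 CPM in Tdgf1 siRNA and 25.1 and 30.9 CPM in control morulae. Early blastocysts had 43.3 and 35.4 CPM in Tdgf1 siRNA and 43.2 and 27.4 CPM in control libraries, and late blastocysts had 57.3 and 57.4 CPM in Tdgf1 siRNA and 58.3 and 52.9 CPM in control libraries. It reached 1.90-fold at late blastocyst against morula (log2 change 0.85, SE 0.15, limma adjusted p = 0.00027), above every other library. Mki67 (chr7:135689784-135716361, minus strand) had 93.1 and 66.0 CPM in Tdgf1 siRNA and 86.6 and 75.3 CPM in control morulae. Early blastocysts had 98.0 and 69.8 CPM in Tdgf1 siRNA and 91.3 and 77.6 CPM in control libraries, and late blastocysts had 125 and 117 CPM in Tdgf1 siRNA and 127 and 106 CPM in control libraries. It too was highest in all 4 late libraries (log2 change 0.55, SE 0.14, limma adjusted p = 0.0045).

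The condensin subunits did not change by a common amount. Smc4 was at 265 ± 21.6 CPM in late blastocysts against 194 ± 25.4 CPM in morulae (log2 change 0.45, SE 0.14, limma adjusted p = 0.012), a call that edgeR and DESeq2 did not make. Its partner Smc2 passed no stage test, at 204 ± 16.5 CPM in late blastocysts against 181 ± 18.1 CPM in morulae. Ncapg was higher at early blastocyst, at 69.6 ± 9.30 CPM against 42.5 ± 9.52 CPM in morulae (log2 change 0.68, SE 0.16, limma adjusted p = 0.0057), and stood at 53.9 ± 7.60 CPM at late blastocyst, with 13.4% of its exon bases opposite Lcorl. Top2a, the topoisomerase that untangles sister DNA, was at 214 ± 20.0 CPM in late against 172 ± 21.4 CPM in early blastocysts (log2 change 0.32, SE 0.11, limma adjusted p = 0.033), a call that edgeR and DESeq2 did not make.

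Sorted by the sequence of the 2 steps as limma called them, 16 of the 46 genes passed neither, and the others fell into 8 patterns. The most common were a fall at the second step alone, in 9 genes (Ccna2, Ccnb1, Plk1, Aurka, Bub1b, Ube2c, Kif2c, Kif20a and Prc1), and a rise there alone, in 7 (Cenpf, Hmmr, Ckap2, Top2a, Smc4, Ncapd2 and Mki67). Birc5, Bub3, Ndc80 and Kif22 rose and then fell, and Ccnb2, Cdc20, Pttg1 and Ncapg rose at the first step alone. Cdk1 and Kif23 fell at both steps, Cenpe and Espl1 at the first alone, Nusap1 rose at both, and Anln fell and then rose. Patterns were not counted over all tested genes, so whether any is more common among these 46 was not tested. Over all tested genes 27.0% were higher and 17.7% lower at the second step, whatever the first. A call missed at 1 step does not show that the level stayed the same there, and 12 of the 46 genes took another pattern with quantile scaling, edgeR or DESeq2, 8 of them with all 3. Espl1 was then lower at both steps (adjusted p for the second 0.0039, 0.012 and 0.0053, against 0.0503 with limma as deposited), Ncapg rose and then fell, Incenp fell at the first step and Ndc80 fell at the second alone, with each of the 3. Ube2c and Top2a were lower at the first step with each of the 3, and Ube2c at both with edgeR and DESeq2. Cdc20 was lower at the second step alone with edgeR and DESeq2, and Ccna2 at both steps with DESeq2. The summed level of the 46 genes was 7605 ± 600 CPM in morulae, 7604 ± 422 CPM in early and 6828 ± 235 CPM in late blastocysts (SD, n = 4 each).

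**Figure D4:**
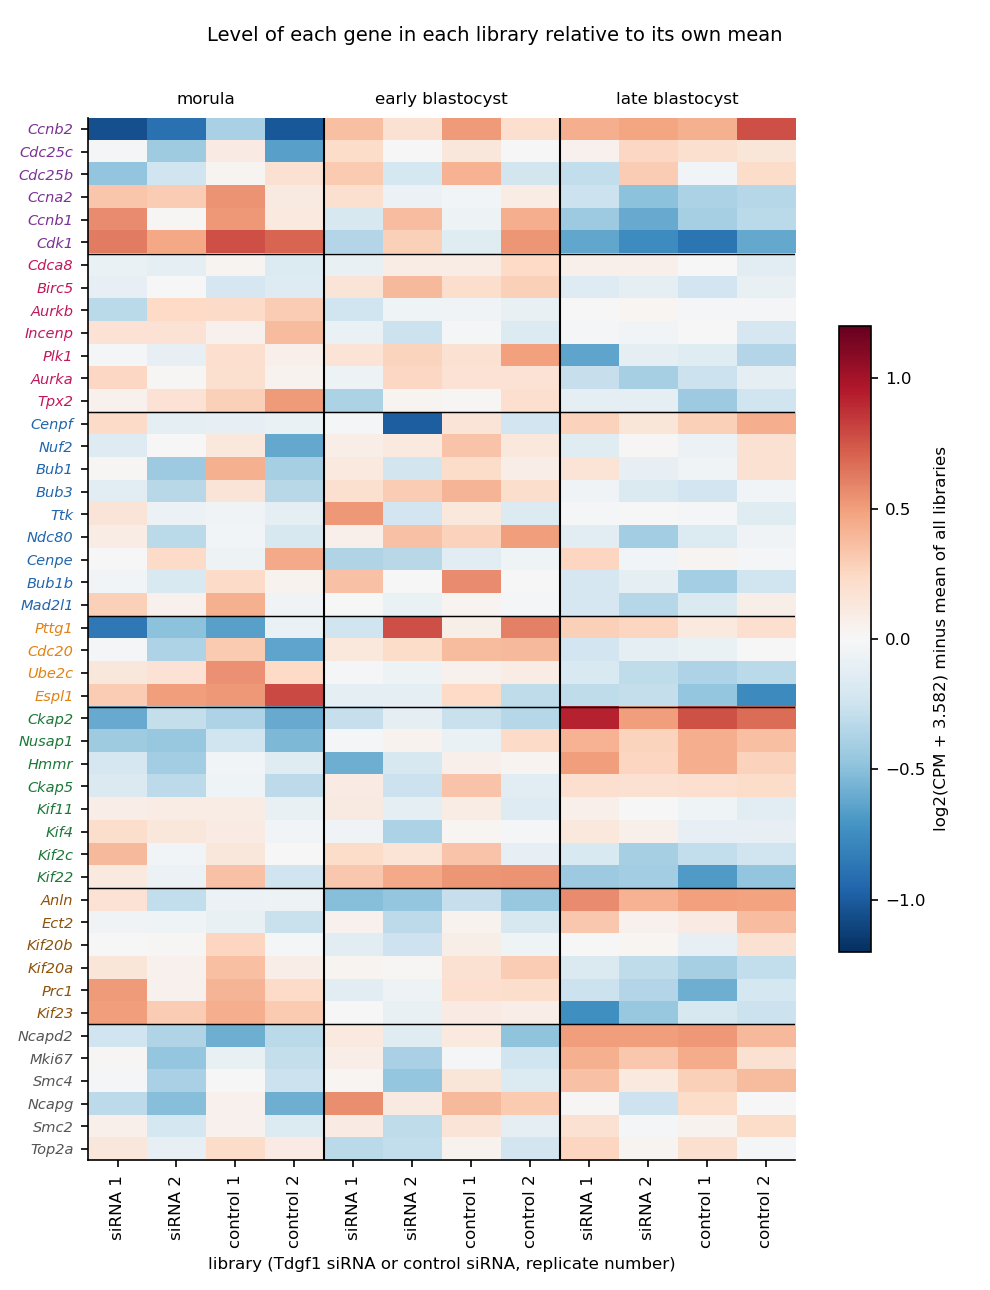
Level of the 46 genes (rows, by role, label colours separate roles) in the 12 libraries (columns), as log2(CPM + 3.582) minus the gene's mean over the libraries, with Tdgf1 siRNA left of control within a stage. Ccnb2, Ckap2 and Anln are red and Cdk1, Ccnb1 and Kif22 blue in all 4 late blastocyst columns, and early blastocyst columns differ by replicate number in Ccnb1, Cdk1 and Pttg1.

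Compared per kilobase of annotated exon, the most abundant of the 46 at morula were Ube2c, Ccnb1, Birc5 and Aurka, at 251, 185, 166 and 143 CPM per kilobase. At early blastocyst they were Birc5, Ube2c, Cdc20 and Ccnb1 (215, 209, 190 and 166 CPM per kilobase), and at late blastocyst Ube2c, Birc5, Cdc20 and Ccnb2 (168, 162, 145 and 141 CPM per kilobase). Cdc25b was the least abundant at each stage, at 1.78, 2.19 and 2.12 CPM per kilobase, with Nuf2 and Cdc25c among the lowest 4 at each stage and Espl1 at the 2 blastocyst stages. The union of annotated exons was taken as length, which exceeds the length of any 1 transcript, so neighbouring ranks were not told apart.

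At early blastocyst the libraries differed by replicate number across the whole table, and these genes did so at about the same rate. In 9 of the 46 (19.6%), both libraries numbered 2 lay above both numbered 1, against 19.2% of all tested genes, and in 18 (39.1%) both lay below, against 41.8%. The number 2 libraries were higher for Pttg1 (1.72 times the mean of number 1), Cdk1 (1.59) and Ccnb1 (1.45) and lower for Cdc25b (0.56), Cenpf (0.63), Ttk (0.67) and Bub1b (0.71). Summed trophectoderm markers in the same libraries were 1759 CPM (Tdgf1 siRNA) and 1652 CPM (control) in those numbered 2, and 3428 CPM (Tdgf1 siRNA) and 3690 CPM (control) in those numbered 1, and the part of this difference in the mitosis genes was not tested. Without the number 1 pair the median log2 change of the 46 at early blastocyst against morula was -0.09, and without the number 2 pair it was 0.15, so its sign rested on which pair was used.

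Whether embryos injected with Tdgf1 siRNA differed in these genes was asked at each stage. None of the 46 passed the test at morula, early blastocyst or late blastocyst, in the average of the stages, or in the test of whether the difference changed with stage (limma, 0 of 10751 tested genes called in each, 0.0%). The smallest adjusted p among the 46 was 0.9996, and at an unadjusted p under 0.05 limma had 0 of the 46 at morula, 1 at early blastocyst, 1 at late blastocyst, 1 in the average and 0 in the test between stages. Of all tested genes, 1.8%, 1.04%, 2.06%, 2.49% and 0.90% were under that p in these 5 tests. With edgeR and with DESeq2 on the recovered reads the numbers among the 46 were 0, 1, 1, 0 and 0, with 0 of the 46 called. Over all tested genes edgeR called 0 in each test, and DESeq2 called 1 at late blastocyst, 1 between stages and 0 in the others. With the replicate pairs as a block the numbers among the 46 were 3, 4, 1, 2 and 2, again with 0 of the 46 called, where 6.17%, 4.57%, 6.48%, 8.52% and 4.42% of all tested genes were under an unadjusted p of 0.05 and 5, 5, 3, 0 and 1 were called. A p that misses the threshold does not show that the levels were alike.

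The direction of the small differences was uneven. At early blastocyst 38 of the 46 log2 changes, Tdgf1 siRNA minus control, were below 0, with a median of -0.11, where the median of all tested genes was 0.00. In the 6 further mitosis lists described below, 68 of 119 were below 0 (median -0.03). These lists differed, from 13 of 15 other kinesin and cytokinesis genes to 11 of 24 other G2 and M regulators and 6 of 15 anaphase-promoting complex genes. Of 43 genes of DNA replication and G1/S, 21 were below 0 (median 0.01). Both Tdgf1 siRNA libraries lay below both controls in 14 of the 46 (30.4%), against 10.0% of all tested genes, and above both in 0, against 9.38%. Within same-numbered pairs the Tdgf1 siRNA library was below the control in both pairs in 28 of the 46 (60.9%), against 25.4% of all tested genes, and above it in both in 3 (6.52%), against 25.5%. The 14 included all but Ect2 of the 6 cytokinesis genes (Kif20a, Kif20b, Kif23, Prc1 and Anln), and also Cdca8, Nuf2, Cenpe, Cdc20, Ube2c, Kif4, Kif22, Hmmr and Top2a. Leaving out each library in turn kept the median between -0.15 and -0.05. The genes share the same 4 libraries, so they are not separate observations, and no test was made of these counts. Tdgf1 was lower with its siRNA in the early pair numbered 1 (9.27 against 21.7 CPM). In the pair numbered 2 it was not (15.2 against 13.1 CPM). Its log2 change at early blastocyst was -0.40 (SE 0.27), against -0.84 at morula and -0.59 at late blastocyst. Whether the direction of the 46 genes followed the level of Tdgf1 was not tested. In the same libraries the 8 epiblast and pluripotency markers, Tdgf1 among them, summed to 983 and 892 CPM with Tdgf1 siRNA against 836 and 845 CPM in controls, without overlap. The trophectoderm markers (3428 and 1759 CPM with Tdgf1 siRNA against 3690 and 1652 CPM in controls) and the primitive endoderm markers (293 and 275 CPM against 233 and 277 CPM) overlapped. The part of these marker levels in the mitosis genes was not tested.

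At morula both Tdgf1 siRNA libraries lay below both controls in 8 of the 46 (17.4%), against 12% of all tested genes, and above both in 3 (Birc5, Kif4 and Ect2; 6.52%), against 15.5%. Within same-numbered morula pairs Tdgf1 siRNA was below control in both in 15 (32.6%), against 24.4%, and above in both in 4 (8.70%), against 28.5%. The median log2 change there was -0.04, with 32 of 46 below 0, and it ranged from -0.19 without control replicate 2 to 0.07 without control replicate 1, so its sign rested on 1 control library. At late blastocyst both Tdgf1 siRNA libraries lay above both controls in 11 (23.9%), against 18.0%, and below both in 6 (13.0%; Ccnb1, Aurka, Mad2l1, Cenpf, Cdc20 and Kif23), against 13.9%. Within the late pairs Tdgf1 siRNA was above control in both in 12 (26.1%), against 28.0%, and below in both in 9 (19.6%), against 20.9%, with 23 of 46 log2 changes below 0 and a median of 0.00.

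**Figure D5:**
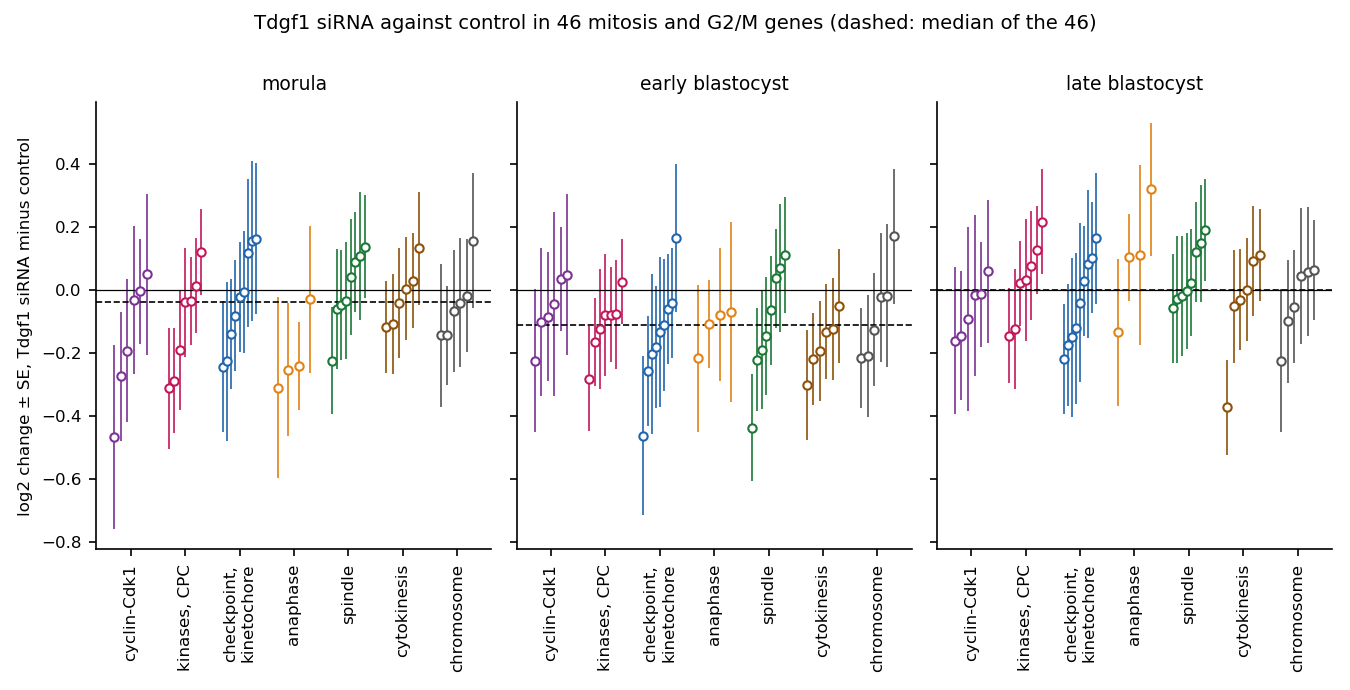
Log2 change ± SE, Tdgf1 siRNA minus control (vertical axis), of each of the 46 genes at the 3 stages, with 2 libraries a group and genes sorted within their role (CPC, chromosomal passenger complex). The dashed line is the median of the 46, at -0.04, -0.11 and 0.00. Points lie mostly below 0 at early blastocyst, and open points mark that no gene passed the test at any stage.

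The single genes nearest to a difference changed from stage to stage. At early blastocyst Hmmr had 79.3 and 105 CPM with Tdgf1 siRNA against 126 and 124 CPM in controls (log2 change -0.44, SE 0.17), and Prc1 had 180 and 189 CPM with Tdgf1 siRNA against 227 and 229 CPM in controls (log2 change -0.30, SE 0.17), both without overlap. Cenpf, at 114 and 56.6 CPM with Tdgf1 siRNA against 129 and 98.0 CPM in controls, overlapped, and its log2 change of -0.46 (SE 0.25) became 0.02 without the Tdgf1 siRNA library numbered 2. At late blastocyst Kif23 had 75.2 and 92.6 CPM with Tdgf1 siRNA against 111 and 107 CPM in controls (log2 change -0.37, SE 0.15), while Espl1 (log2 change 0.32, SE 0.21) and Tpx2 (0.22, SE 0.17) stood above controls without overlap. At morula the order for Tpx2 was the other way, 179 and 194 CPM with Tdgf1 siRNA against 211 and 248 CPM in controls (log2 change -0.29, SE 0.17). Ube2c had 588 and 606 CPM with Tdgf1 siRNA against 786 and 633 CPM in control morulae (log2 change -0.24, SE 0.14). Aurkb (chr11:69045647-69051664, plus strand), the kinase of the passenger complex, had 41.2 and 62.7 CPM with Tdgf1 siRNA and 62.3 and 65.8 CPM in control morulae (log2 change -0.31, SE 0.19). Early blastocysts had 44.0 and 50.5 CPM in Tdgf1 siRNA and 50.9 and 49.1 CPM in control libraries, and late blastocysts had 52.4 and 53.7 CPM in Tdgf1 siRNA and 51.9 and 51.7 CPM in control libraries. None of these passed the test with limma, edgeR or DESeq2. Apart from Prc1, each of these values moved by over 1.5 times when a single library was left out. Without Tdgf1 siRNA replicate 1 the log2 change of Aurkb at morula was -0.03, that of Hmmr at early blastocyst -0.24 and that of Kif23 at late blastocyst -0.23, and without Tdgf1 siRNA replicate 2 they were -0.60, -0.64 and -0.52. At morula Ube2c was at -0.09 without control replicate 1 and -0.39 without control replicate 2, and Tpx2 at -0.40 and -0.17. At late blastocyst Espl1 was at 0.47 and 0.17 and Tpx2 at 0.12 and 0.31 without control replicates 1 and 2. Prc1 ranged from -0.34 to -0.27 over such fits.

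Other genes of division, listed by complex, were counted in the same way from morula to late blastocyst, where 36.6% of all tested genes were higher and 24.3% lower, with a median log2 change of 0.13. Over 6 further lists of mitosis genes, 119 of 124 named genes were tested, of which 36 (30.3%) were higher and 32 (26.9%) lower, with a median log2 change of 0.09, so both shares were near the background. In the anaphase-promoting complex 2 of 15 were higher and 6 lower: Fzr1, the activator of late mitosis and G1, was at 82.7 ± 10.5 CPM in late blastocysts against 42.1 ± 6.0 CPM in morulae, and the subunit Anapc16 at 68.1 ± 3.88 against 171 ± 30.8 CPM. Of 30 other centromere and kinetochore genes 9 were higher and 4 lower, from Cenpb (7.29 ± 2.28 against 1.34 ± 0.88 CPM in morulae), which binds centromeric DNA, to Dsn1 (45.3 ± 8.03 against 120 ± 10.7 CPM), a subunit of the Mis12 complex. Cohesin and the other condensin subunits counted 5 higher and 6 lower of 14, with the cohesin regulator Pds5b at 39.3 ± 6.73 against 17.9 ± 4.82 CPM and the cohesin subunit Stag2 at 194 ± 24.7 against 651 ± 93.7 CPM in morulae.

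Centrosome genes had 9 of 21 higher and 4 lower at late blastocyst than at morula, led by Cep135 (12.02 ± 3.20 against 5.17 ± 1.38 CPM in morulae), a centriole protein, and Haus3 (68.9 ± 4.50 against 119 ± 15.1 CPM), a subunit of augmin. Other G2 and M regulators had 6 of 24 higher and 9 lower, between Cdkn3 (27.9 ± 2.98 against 9.83 ± 1.19 CPM), a phosphatase acting on Cdk enzymes, and Cks2 (310 ± 33.4 against 1087 ± 42.1 CPM), the small Cdk partner. Of 15 other kinesin and cytokinesis genes 5 were higher and 3 lower, with the abscission protein Cep55 at 32.5 ± 2.88 against 13.3 ± 3.73 CPM and Sapcd2, a regulator of spindle orientation, at 26.5 ± 2.99 against 188 ± 19.3 CPM in morulae. Outside mitosis, 43 genes of DNA replication and G1/S had 13 higher (30.2%) and 12 lower (27.9%), again near the shares over all tested genes, with the replisome subunit Gins2 at 84.3 ± 4.67 against 27.7 ± 4.09 CPM and the G1/S cyclin Ccne1 at 46.3 ± 5.31 against 163 ± 23.5 CPM. Of 7 tested cyclin-dependent kinase inhibitors and pocket proteins, 5 were higher (71.4%, against 36.6% of all tested genes) and 1 lower (14.3%, against 24.3%), with a median log2 change of 0.67 over a short list that was not tested against other genes. Rbl1, the pocket protein p107, was at 43.2 ± 5.60 against 13.1 ± 3.33 CPM, and Cdkn1a, the inhibitor p21, was lower at 97.6 ± 32.1 CPM in late blastocysts against 153 ± 29.7 CPM in morulae.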

How the data were processed

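The mouse embryo RNA was sequenced after SMARTer Ultra Low Input and NEBNext Ultra DNA preparation, per the labels' protocols, and no source used here states strand. HISAT2 2.1.0, Cufflinks, HTSeq, edgeR and build mm10 are named, without their roles, in the submitters' processing notes. A single table covers 43472 genes in 12 libraries, and the authors headed its columns RPKM. Every column summed to 279173.646, and all values were multiples of a step equal to 1 read (100.0% whole within 0.01 reads) whatever the gene's length, so the deposited values are CPM divided by 3.582, and whole reads (10524640 to 13770264 per library) were recovered from them. The plan had assumed RPKM, and the planned test was kept.

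The 10751 genes whose mean reached 1 deposited unit were tested with limma 3.58.1 in R 4.3.3 (eBayes with trend) on log2(value + 1), a pseudocount of 3.582 CPM, which understates the change of low genes. 1 fit over the 12 libraries and 6 group means had 6 residual and 7.55 prior degrees of freedom. Adjustment was by Benjamini-Hochberg over all tested genes, threshold 0.05. Stage comparisons averaged both siRNA arms, and SD of a stage is over its 4 libraries. edgeR 4.0.16 and DESeq2 1.42.0 on the recovered reads were alternatives. The fit was also run on simulated counts drawn independently for each library. These lack any correlation of same-numbered libraries, so that run does not bear on the siRNA comparisons. Same-numbered libraries of the arms correlated in their deviations at 0.458 (morula), 0.593 (early blastocyst) and 0.101 (late blastocyst), and with all 3 above 0.1 the numbers were treated as pairs at each stage. No label states a shared day or litter, and the late value only just passes 0.1. Between stages, control early and late blastocysts correlated at 0.138, above the late pair, and control morula and early blastocyst at 0.006. For Tdgf1 siRNA these were 0.012 (early and late blastocyst) and 0.077 (morula and early blastocyst). The pairing at late blastocyst is therefore not established. The fit with pairs as a block had 3 residual degrees of freedom.

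Coordinates (GRCm38, 1-based), exon lengths and overlaps are from GENCODE M21, copies were searched with BLAST 2.17.0, and promoters are from RefSeq (GRCm38.p6), whose gene starts can differ from those of GENCODE. Python 3.11.15, pandas 2.3.3 and matplotlib 3.10.9 made tables and figures. Genes given with all 12 values are, by rule, the largest called rise and fall per role from morula to late blastocyst, the 3 smallest p for siRNA per stage, and Ccnb1, Cdk1, Plk1, Aurka and Mki67. From each other list the called genes with the largest rise and fall are named. Members and lists were chosen with earlier results of these data known. Amplified reads carry no molecular identifiers, so limits from counts cover counting error only.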

Additional observations from a re-analysis of the deposited data

How the results depend on the processing

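Pseudocounts of 0.1 and 5 deposited units and a filter at a mean of 5 units moved no count of the 46 genes by over 1.5 times. At early blastocyst against morula the 9 higher became 4 with no filter on low values, 5 without the early blastocyst pair numbered 1, 1 in controls alone and 3 in Tdgf1 siRNA libraries alone. The 5 lower became 2 with no filter, 8 with quantile scaling, 8 with edgeR, 9 with DESeq2, 3 without either early blastocyst pair, 1 in controls alone and 0 in Tdgf1 siRNA libraries alone. At late against early blastocyst the 9 higher became 4 with no filter, 4 without the pair numbered 2 and 3 in either arm alone, and the 15 lower became 8 in controls and 4 in Tdgf1 siRNA libraries alone. At late blastocyst against morula the 11 higher became 6 in controls alone and the 14 lower 8 in Tdgf1 siRNA libraries alone. An arm alone has 2 libraries a stage in place of 4, and without a filter more genes are tested.

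Leaving out 1 library gave 5 to 11 higher and 2 to 5 lower at early blastocyst against morula (5 higher without either morula library numbered 2, 2 lower without Tdgf1 siRNA morula replicate 1, 3 lower without Tdgf1 siRNA early blastocyst replicate 1). It gave 4 to 9 higher and 9 to 16 lower at late against early blastocyst (4 higher without Tdgf1 siRNA early blastocyst replicate 2, 5 without control early blastocyst replicate 2 or either late library numbered 1, and 9 lower without Tdgf1 siRNA late blastocyst replicate 2), and 8 to 14 higher and 11 to 14 lower at late blastocyst against morula. With the replicate block the siRNA counts were 0 at every stage, in the average and between stages, and they stayed at 0 under every alternative tried. The block moved no stage count by over 1.5 times. Of the named genes, Pttg1, Aurka, Mki67, Plk1 and Mad2l1 did not pass at late blastocyst against morula in controls alone, nor Tpx2, Kif22, Plk1 and Mad2l1 in Tdgf1 siRNA libraries alone, nor Pttg1, Plk1 and Mad2l1 without a filter. Uncalled values that turned sign were that of Aurkb for late blastocyst against morula, 0.0556 in Tdgf1 siRNA libraries alone and 0.0255 (without Tdgf1 siRNA morula replicate 2) to -0.258 over the fits that leave out 1 library, and that of Cenpf for Tdgf1 siRNA against control at early blastocyst, 0.0236 (without Tdgf1 siRNA replicate 2) to -0.947 (without replicate 1).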
